A study of Arabidopsis thaliana with 24 samples.

Results

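Protein phosphatase 6 (PP6) removes phosphate from serine and threonine and is assembled from a catalytic subunit, a regulatory subunit with a SAPS domain, and an A-type scaffold subunit. In Arabidopsis thaliana the catalytic subunits are FYPP1 and FYPP3, first described as phosphatases that act on phytochrome. The regulatory subunits are the SAPS-domain-like proteins SAL1 to SAL4, and the scaffold is RCN1, PP2AA2 or PP2AA3, which the phosphatase PP2A uses as well. PP6 is known in seedlings for acting on the PIN auxin efflux carriers against the kinase PINOID, and for lowering the stability of the transcription factor ABI5, through which seedlings respond to abscisic acid (ABA, a stress hormone).

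These 9 genes were taken by gene ID from the 32833 genes measured. The rule used no expression value, but it was set with earlier results of these data known. RNA was sequenced from whole seedlings in the Columbia 0 background. Each of 8 groups had 3 libraries. The 4 genotypes were wild type (WT), the mutant nrp1 nrp2, the line FyPP3DN, named for a dominant-negative form of FYPP3, and nrp1 nrp2 FyPP3DN, labelled as carrying all of these. Each genotype was kept for 24 h with 5 µM ABA or without it. Seedlings were 5 days old when treated according to the sample labels, but 7 days old at harvest (6 days untreated and 1 day under treatment) according to the design text. The sources used here name neither the promoter that drives FyPP3DN, nor the number of independent lines, nor the loci of nrp1 and nrp2. The series title asks whether NRP turns off FyPP3 to hold back auxin-driven growth under ABA.

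Levels are given as the deposited FPKM, a count of fragments scaled by exon length and library depth. Library depth was 16.6 to 29.1 M fragments. In each group, plastid-encoded genes were abundant in 1 library (9.61% to 18.8% of summed FPKM over the 8 such libraries, called plastid-rich) and scarce in 2 (0.0252% to 0.0877% over 16, called plastid-poor). All 5 shoot markers and all 8 root markers checked were above 0 in all 24 libraries, the lowest root value being 0.03 FPKM. Because tissue was bulk, a change in the number of cells of a type and a change in RNA per cell cannot be told apart. The labels do not say that replicates were separate cultures, so p-values measure the spread between these libraries. AT3G27090, 1 of 4 genes with NRP names, had an FPKM of 12.03 to 21.1 in libraries with nrp1 nrp2 in the label and 64.9 to 78.2 in all others. AT5G42050, the other DCD (development and cell death domain) gene of the 4, was at 44.03 to 73.95 in libraries with nrp1 nrp2 in the label and at 26.5 to 52.5 in the others, ranges that overlap. Without ABA, AT5G42050 was higher in the labelled combination than in WT (adjusted p = 0.00324, limma), and its difference of 0.85 between nrp1 nrp2 and WT did not pass (adjusted p = 0.0524, limma).

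FYPP1 (AT1G50370, chromosome 1, 18658508 to 18662052, TAIR10.1) and FYPP3 (AT3G19980, chromosome 3, 6961736 to 6965206) are close paralogs. Each has 912 coding bases in 10 coding exons of the same lengths, and 91.9% of those bases are identical. Of the 74 differences, 71 fall at codon position 3, 3 at position 1 and 0 at position 2. The stretch of 90 bases that differs most within an exon lies in coding exon 7, at coding bases 523 to 612. It is shown because such differences are what separates reads of the 2 genes, with the 10 bases that differ in capitals (RefSeq, TAIR10.1, plus strand, FYPP1 at chr1:18660743-18660832 and FYPP3 at chr3:6963820-6963909).
FYPP1: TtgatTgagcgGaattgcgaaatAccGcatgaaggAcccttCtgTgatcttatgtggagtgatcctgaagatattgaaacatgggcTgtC
FYPP3: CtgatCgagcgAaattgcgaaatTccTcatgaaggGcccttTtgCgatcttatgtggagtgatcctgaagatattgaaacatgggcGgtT

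The longest run shared by both coding sequences is 53 bases, at coding bases 799 to 851 of the spliced sequence. It is shown because a read lying wholly within it could belong to either gene.
FYPP1 and FYPP3: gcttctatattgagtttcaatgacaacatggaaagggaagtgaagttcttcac
The run is shorter than the insert size of about 300 bases in the labels' protocols. The sources used here do not say how reads that match both genes were assigned. Reads from the FyPP3DN transgene and from the resident FYPP3 gene are added together in the FPKM of FYPP3 and cannot be told apart. Among the other subunits, PP2AA2 and PP2AA3 share 87.0% of aligned coding bases, RCN1 shares 76.6% with PP2AA2 and 77.9% with PP2AA3, and the SAL genes share 62.1% (SAL2 with SAL3) to 80.5% (SAL1 with SAL3).

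FYPP3 transcript was high in the FyPP3DN libraries, more so without ABA than with it, and was near the WT level where the label was nrp1 nrp2 FyPP3DN. FYPP3 encodes a PP6 catalytic subunit. Without ABA its FPKM was 18.3, 15.7 and 12.7 in WT and 46.7, 34.5 and 85.2 in FyPP3DN (replicates 1 to 3). All 3 FyPP3DN libraries lay above all 3 WT libraries, as was the case for 6.13% of all genes, and they spread over a wider range than any other group. The group means were 15.6 ± 2.82 and 55.5 ± 26.4 (SD, n = 3), a log2 difference of 1.68 ± 0.20 (SE) on the log2(FPKM + 1) scale, adjusted p = 0.000139 (limma). FYPP3 was the 1 gene of the 9 that passed in this comparison, in which 0.579% of the 19500 genes tested (those with an FPKM of 1 or more in at least 3 libraries) passed, and it ranked 8 among them by p. In the plastid-poor libraries alone the difference was 2.08 ± 0.22 (adjusted p = 0.00189, limma). Fitted on these 2 groups without the other 6, the difference had an SE of 0.31 and no longer passed (adjusted p = 0.296, limma). The SE of 0.20 rests on a spread shared with narrower groups.

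FYPP3 fell with ABA in FyPP3DN. With ABA the 3 FyPP3DN libraries had an FPKM of 24.9, 22.5 and 29.3, each below every FyPP3DN library without ABA (a fall without overlap, as in 7.02% of all genes). The log2 difference was -0.99 ± 0.20 (adjusted p = 0.00402, limma), beside a background of 5.95% of genes passing, and FYPP3 was the 1 member that passed. Without replicate 3 of the FyPP3DN control group, the library at 85.2, the difference was -0.64 ± 0.14 (adjusted p = 0.00984, limma), and in a fit of the 2 groups alone it did not pass (adjusted p = 0.207). In WT with ABA FYPP3 was at 16.7, 16.0 and 16.4. The FyPP3DN libraries were therefore still above WT without overlap, as held for 6.54% of all genes. That difference, 0.61 ± 0.20, did not pass (adjusted p = 0.214, limma), in a comparison where 0.892% of genes did.

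The libraries labelled nrp1 nrp2 FyPP3DN did not carry the high FYPP3 level. Without ABA they had an FPKM of 13.5, 12.9 and 12.8, below the 15.6, 15.2 and 15.2 of nrp1 nrp2. They are therefore called by their label, and no value from them is given as an effect of FyPP3DN. Against FyPP3DN without ABA the log2 difference was -1.90 ± 0.20 (adjusted p = 1.7e-05, limma), the 1 call among the 9 genes where 7.58% of all genes passed; in a fit of the 2 groups alone the adjusted p was 0.0543. Against nrp1 nrp2 the difference was -0.21 ± 0.20 (adjusted p = 0.746, limma), with a 95% interval of -0.63 to 0.21 and 0.0462% of genes passing. That SE rests on a spread shared by all 8 groups, including the wide FyPP3DN group without ABA. The 2 groups themselves had SDs of 0.38 and 0.22 FPKM and did not overlap, a fall seen in 12.5% of all genes. In a fit of the 2 groups alone the difference did not pass either (adjusted p = 0.341, limma). The difference that goes with the FyPP3DN label differed between the nrp1 nrp2 and WT backgrounds, by -1.90 ± 0.28 on the log2 scale (adjusted p = 0.00194, limma, 3.9% of genes passing). The comparisons in this paragraph and the 2 before it share the FyPP3DN libraries without ABA. The summed FPKM of the 5 shoot markers moved as well: it was 28548 to 32709 in FyPP3DN without ABA, 35204 to 37246 in WT and 38473 to 39801 in the labelled combination. In the labelled combination against FyPP3DN without ABA, 1 of the 5 (LHCB1.3) passed, higher, and the median log2 difference was 0.35 for the shoot markers and -0.35 for the 7 root markers tested, of which 0 passed (limma). The summed FPKM of the 8 root markers was 26.3 to 48.4 in FyPP3DN, 24.5 to 40.6 in WT and 26.2 to 34.1 in the labelled combination. Their part in the FYPP3 and scaffold values was not tested.

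**Figure D1:**
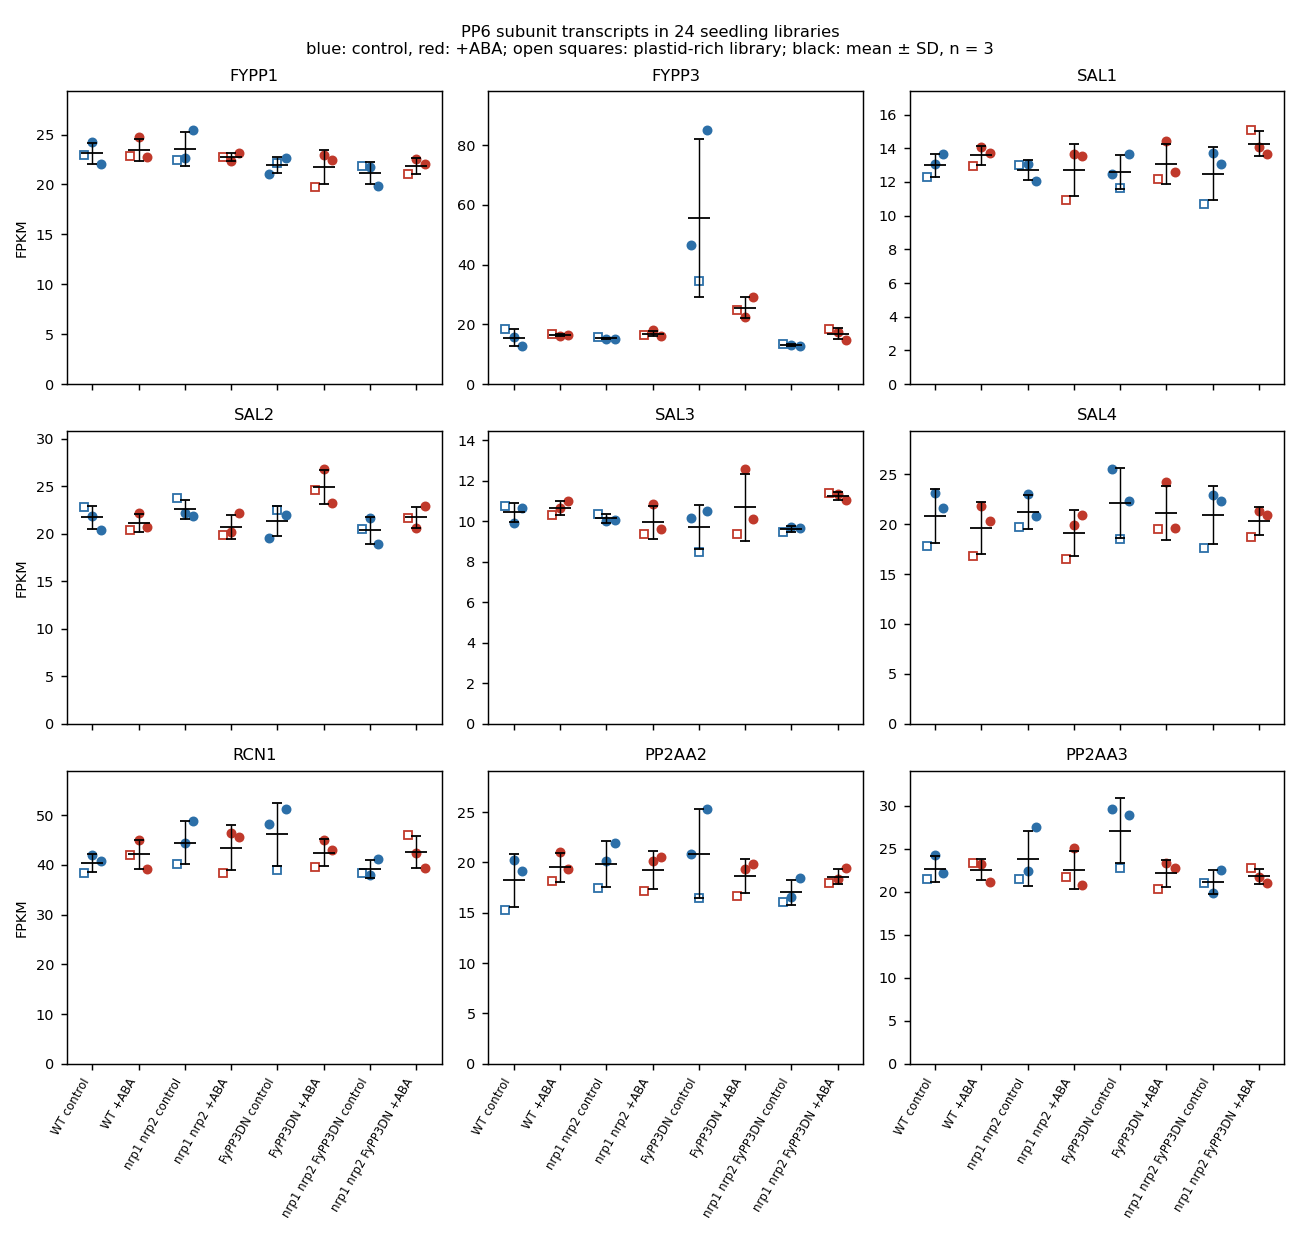
FPKM of the 9 PP6 subunit genes (y axis, linear, from 0, a scale per gene) in each of the 24 libraries, by group (x axis), with the mean and SD of 3 libraries in black, control libraries in blue, ABA libraries in red and plastid-rich libraries as open squares. FYPP3 stands at 34.5 to 85.2 in FyPP3DN without ABA and at 22.5 to 29.3 with ABA, above its level in every other library.

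With ABA, FYPP3 was at 18.4, 17.5 and 14.8 in the labelled combination and at 16.5, 18.02 and 16.2 in nrp1 nrp2, and these groups overlapped. In order of mean FPKM, the group labelled nrp1 nrp2 FyPP3DN without ABA was lowest at 13.1 ± 0.38. It did not overlap the next group, nrp1 nrp2 without ABA, as held for a fall in 12.5% of all genes. It did overlap WT without ABA, which ran from 12.7 to 18.3. The 5 groups above the lowest group lay between 15.3 ± 0.22 (nrp1 nrp2) and 16.9 ± 1.89 (the labelled combination with ABA), and each overlapped its neighbour among these 5. FyPP3DN with ABA, at 25.6 ± 3.42, and FyPP3DN without ABA were apart from them and from each other.

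The ABA response of FYPP3 was small in the other genotypes. It was 0.08 ± 0.20 in WT (adjusted p = 0.932, limma, 7.7% of genes passing), 0.13 ± 0.20 in nrp1 nrp2 (adjusted p = 0.880, 6.02% passing) and 0.34 ± 0.20 in the labelled combination (adjusted p = 0.339, 11.4% passing). These SEs rest on the spread shared by all 8 groups, including the wide FyPP3DN group without ABA. In both nrp1 nrp2 and the labelled combination all 3 ABA libraries lay above all 3 controls. A rise without overlap was seen in 7.82% and 19.3% of all genes in those comparisons. The ABA response in FyPP3DN was lower than in WT by a difference of -1.08 ± 0.28 that did not pass (adjusted p = 0.186, limma, 0.144% passing). Without replicate 2 of FyPP3DN without ABA, the plastid-rich library at 34.5, it was -1.36 and passed (adjusted p = 0.0124). The ABA response in the labelled combination exceeded that in FyPP3DN by 1.33 ± 0.28 (adjusted p = 0.0360, limma, 0.513% passing), a comparison added after the values were seen. It no longer passed when any of 8 of the 12 libraries was left out (adjusted p up to 0.116): replicate 1 of FyPP3DN without ABA, replicate 1 or 2 of FyPP3DN with ABA, any replicate of the labelled combination without ABA, or replicate 1 or 2 of it with ABA. The difference of ABA response passed for 0.0103% of genes between FyPP3DN and nrp1 nrp2, and for 0 genes (0.0%) among WT, nrp1 nrp2 and the labelled combination, and no PP6 gene passed there.

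FYPP1, the other catalytic gene, hardly moved. Its FPKM was 19.8 at the lowest, 22.5 at the median and 25.5 at the highest of the 24 libraries, and its group means ran from 21.1 ± 1.11 in the labelled combination without ABA to 23.5 ± 1.70 in nrp1 nrp2 without ABA. In FyPP3DN without ABA, where FYPP3 was highest, FYPP1 was at 21.1, 22.2 and 22.7, overlapping the 23.0, 24.3 and 22.1 of WT. The log2 difference from WT there was -0.07 ± 0.08 (adjusted p = 0.777, limma). Over 14 comparisons between groups its differences ran from -0.15 to 0.05, with 95% intervals that reached no further than -0.31 and 0.21. The libraries of the labelled combination without ABA (21.8, 21.7 and 19.9) lay wholly below those of WT and of nrp1 nrp2. A fall without overlap was seen in 6.59% and 12.5% of all genes in those comparisons, and FYPP1 was below WT without overlap with ABA as well, as were 3.61% of genes.

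**Figure D2:**
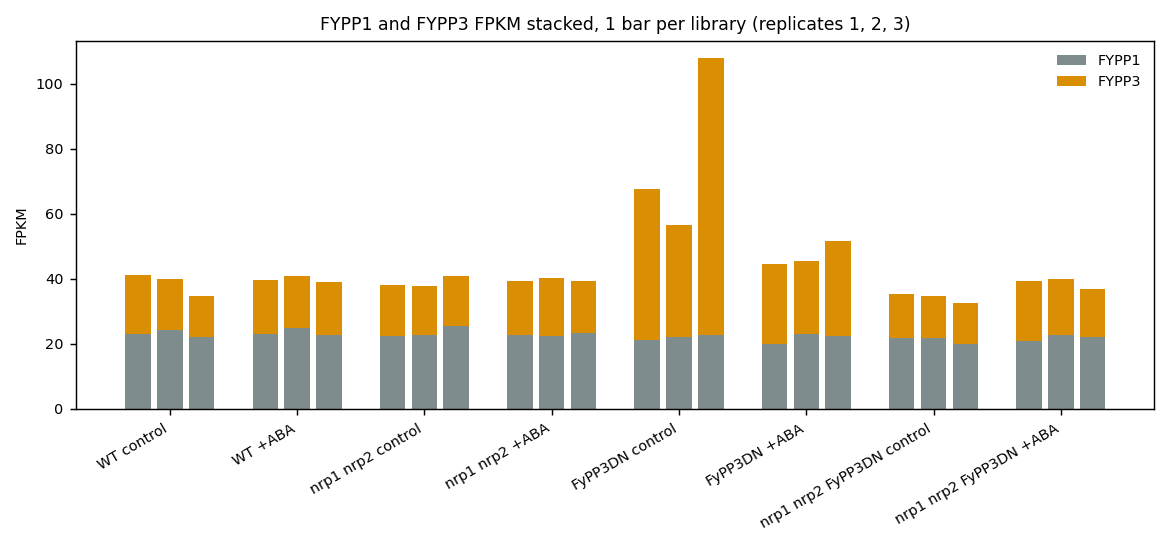
FPKM of FYPP1 (grey) and FYPP3 (orange) stacked for each library (y axis, FPKM, from 0), 3 bars per group in the order of replicates 1 to 3. The FYPP1 part stays between 19.8 and 25.5 in all bars, and the FYPP3 part reaches 85.2 in FyPP3DN without ABA.

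FYPP3 gave less catalytic transcript than FYPP1 in 19 of 24 libraries. Its share of the summed FPKM of both was 40.01% ± 4.003 (SD, n = 3) in WT without ABA and 41.1% ± 1.62 with ABA. FyPP3DN had shares of 69.6% ± 9.04 without ABA and 53.9% ± 3.84 with ABA, which count reads of the transgene as well. In nrp1 nrp2 it was 39.5% ± 1.89 and 42.6% ± 1.83, and in the labelled combination 38.3% ± 0.94 and 43.5% ± 3.31. Exact two-sided permutation tests of 3 libraries against 3 cannot go below p = 0.1, and they gave p = 0.1 for FyPP3DN against WT under both treatments, for the labelled combination against FyPP3DN under both, and for ABA in FyPP3DN, nrp1 nrp2 and the labelled combination. The other 3 tests, of 10 in all, gave exact p from 0.3 to 1.

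None of the regulatory SAL genes passed in limma in any of the 14 comparisons between groups. SAL2 (AT1G30470, chromosome 1, 10779111 to 10786697) and SAL4 (AT3G45190, chromosome 3, 16541615 to 16548367) had the higher levels, with medians of 21.9 and 20.9 FPKM over the 24 libraries. SAL1 (AT1G07990, chromosome 1, 2476953 to 2483196) was at 13.1 and SAL3 (AT2G28360, chromosome 2, 12124152 to 12130092) at 10.2. SAL1 lay above SAL3 and below SAL2 and SAL4 in 24 of 24 libraries. SAPS-domain subunits are known to bind the catalytic subunit and to direct PP6 to its substrates.

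SAL2 was highest in FyPP3DN with ABA, at 24.7, 26.8 and 23.2 FPKM. It was at 19.6, 22.5 and 22.04 in FyPP3DN without ABA and at 20.5, 22.2 and 20.8 in WT with ABA. Neither of those groups overlapped with FyPP3DN with ABA. Rises without overlap were seen in 9.14% of all genes for ABA in FyPP3DN and in 6.54% for FyPP3DN against WT with ABA. The log2 differences were 0.21 ± 0.08 (adjusted p = 0.149, limma) and 0.22 ± 0.08 (adjusted p = 0.277, limma). With ABA, SAL2 and FYPP3 were lower without overlap in the labelled combination than in FyPP3DN, as were 10.9% of all genes, by -0.19 ± 0.08 for SAL2 (adjusted p = 0.245, limma) and -0.57 ± 0.20 for FYPP3 (adjusted p = 0.148, limma).

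SAL3 was at 9.48, 9.72 and 9.68 FPKM in the labelled combination without ABA and at 11.4, 11.4 and 11.0 with ABA, so these groups did not overlap, as held for a rise in 19.3% of all genes. Its ABA libraries there also lay above those of WT and of nrp1 nrp2, as did those of 4.65% and 4.86% of all genes. The log2 difference with ABA in the labelled combination was 0.21 ± 0.09 (adjusted p = 0.183, limma). SAL1 moved in the same comparison from 10.7, 13.7 and 13.1 to 15.1, 14.1 and 13.6, with groups that overlapped and a log2 difference of 0.18 ± 0.10 (adjusted p = 0.291, limma). For SAL4 the lowest adjusted p over the 14 comparisons was 0.754 (limma).

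The scaffold genes did not pass either. RCN1 (AT1G25490, chromosome 1, 8951162 to 8955160), the A subunit whose loss is known to change auxin transport and root curling, had the highest level of the 9 genes in 23 of 24 libraries, with 37.9 to 51.2 FPKM and a median of 42.0. Its share of the A-subunit FPKM was 48.5% to 53.0% over all libraries. PP2AA3 (AT1G13320, chromosome 1, 4563428 to 4567849), widely used as a reference gene in quantitative PCR, ran from 19.8 to 29.6, and PP2AA2 (AT3G25800, chromosome 3, 9422476 to 9426049) from 15.3 to 25.3. PP2AA3 lay above PP2AA2 in 24 of 24 libraries.

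All 3 scaffold genes had their highest group mean in FyPP3DN without ABA and their lowest in the labelled combination without ABA. This was not particular to them. FYPP1, FYPP3, SAL1, SAL2 and SAL3 also had their lowest mean in that labelled combination, and FYPP3 and SAL4 their highest in FyPP3DN without ABA. PP2AA3 was at 29.6, 22.8 and 29.0 FPKM in FyPP3DN without ABA and at 21.1, 19.8 and 22.6 in the labelled combination without ABA. These libraries did not overlap, which held for a fall in 13.4% of all genes, and the plastid-rich library of FyPP3DN was the one at 22.8. The summed shoot marker FPKM did not overlap between these libraries either, being 28548 to 32709 in FyPP3DN and 38473 to 39801 in the labelled combination. The log2 difference of PP2AA3 was -0.34 ± 0.11 (adjusted p = 0.0603, limma), the smallest adjusted p of the 8 genes other than FYPP3. RCN1 was at 48.3, 39.0 and 51.2 against 38.5, 37.9 and 41.3, a difference of -0.22 ± 0.10 (adjusted p = 0.209, limma) between groups that overlapped. PP2AA2 was at 20.9, 16.5 and 25.3 against 16.1, 16.5 and 18.4, a difference of -0.26 ± 0.13 (adjusted p = 0.246, limma), also with overlap. With library type as a term in the fit, PP2AA3 (adjusted p = 0.0242) and PP2AA2 (adjusted p = 0.0450) passed there (limma). Over all genes, 3016 passed there with that term and 1479 without it. Without replicate 2 of FyPP3DN without ABA, PP2AA3 (-0.45, adjusted p = 0.0152) and RCN1 (-0.34, adjusted p = 0.0485) passed there, and PP2AA3 passed for ABA in FyPP3DN (-0.39, adjusted p = 0.0304, limma). Over all genes, 1717 and 1571 passed in these comparisons without that library, and 1479 and 1161 with it.

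Over the 8 genes other than FYPP3 and the 14 comparisons, 0 of 112 values passed in limma, and 8 had an unadjusted p under 0.05. Their log2 differences ran from -0.34 to 0.24, and their 95% intervals lay within -0.56 and 0.46. A change of that size or smaller in a single gene is not shown to be absent. The comparisons not named so far, in which no member passed, had 0.0923% (nrp1 nrp2 against WT without ABA), 0.0667% (the same with ABA), 0.0821% and 0.0872% (the labelled combination against WT), 0.0103% (the labelled combination against nrp1 nrp2 with ABA) and 2.01% (the labelled combination against FyPP3DN with ABA) of genes passing. The difference between backgrounds with ABA passed for 0.518% of genes and for no PP6 gene. For nrp1 nrp2 against WT the FYPP3 difference was 0.00 ± 0.20 without ABA, with an interval of -0.42 to 0.41, and 0.04 ± 0.20 with ABA.

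**Figure D3:**
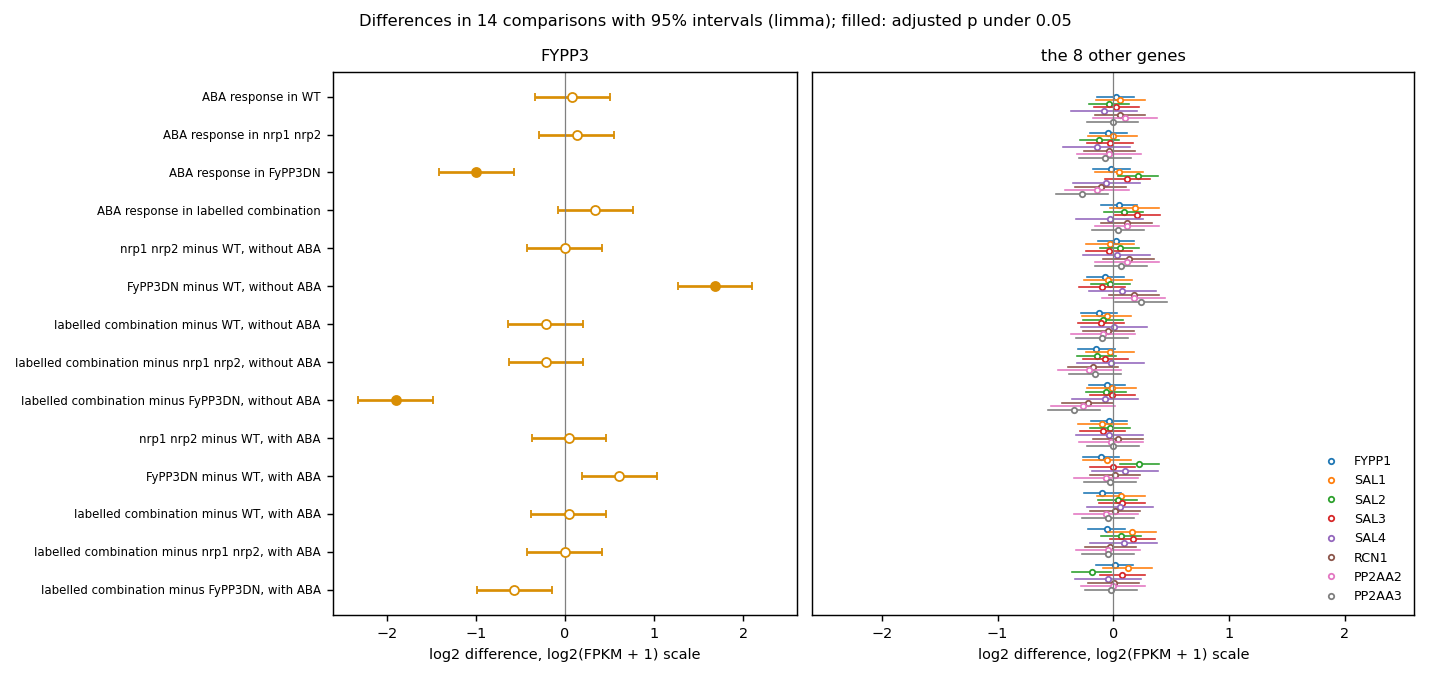
Log2 differences (x axis, log2(FPKM + 1) scale) with 95% intervals in 14 comparisons between groups (y axis), for FYPP3 on the left and the 8 other genes on the right, with filled points for an adjusted p under 0.05 in limma. The labelled combination is nrp1 nrp2 FyPP3DN; FYPP3 has 3 filled points, at 1.68, -0.99 and -1.90, and the other genes have 0.

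Summed by role, the catalytic sum varied most between groups, and the scaffold sum had its highest and lowest means in the same groups as the catalytic sum. Without ABA the catalytic sum was 38.7 ± 3.44 FPKM in WT (SD, n = 3) against 77.4 ± 26.9 in FyPP3DN, and with ABA it was 39.8 ± 0.84 against 47.3 ± 3.87. The SAL sum was 66.0 ± 2.11 and 65.8 ± 4.04 without ABA, and 65.0 ± 4.18 and 69.8 ± 7.13 with ABA. The scaffold sum was 81.3 ± 5.72 and 94.2 ± 14.2 without ABA, and 84.2 ± 4.88 and 83.3 ± 5.82 with ABA. In the labelled combination without ABA the catalytic and scaffold sums were lowest, at 34.2 ± 1.40 and 77.4 ± 4.27. Outside the FyPP3DN groups, the SAL sum was 1.44 to 1.96 times the catalytic sum over 18 libraries, and it was as low as 0.64 in FyPP3DN. These are transcript levels per length and say nothing of protein amounts.

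FYPP1 was among the least variable genes of the seedling. The SD of its log2(FPKM + 1) over the 24 libraries was 0.080, below which 0.205% of the 19500 genes tested lay, and its FPKM had a coefficient of variation of 5.76%. All 11 common reference genes examined were more variable by this SD, the steadiest being TIP41-like at 0.10 and PP2AA3, listed here among the PP6 genes, standing at 0.14 (17.1% of genes lower). The SDs of SAL2, SAL3, SAL1 and RCN1 were 0.11, 0.11, 0.11 and 0.12, and those of SAL4 and PP2AA2 were 0.15 and 0.16. FYPP3 was at 0.63, above 95.5% of genes, and at 0.16, above 34.4% of genes, when the 6 FyPP3DN libraries were left out. By the SD within groups, the reference gene UBC9, at 0.060, was steadier than FYPP1, at 0.072.

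**Figure D4:**
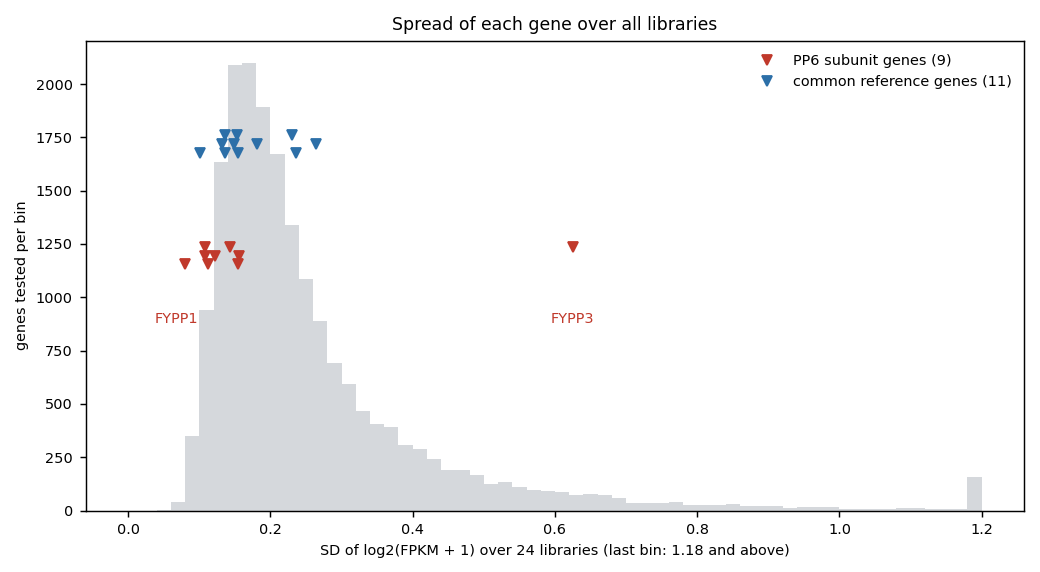
Number of genes tested (y axis) by the SD of log2(FPKM + 1) over the 24 libraries (x axis), with the 9 PP6 subunit genes marked in red and 11 common reference genes in blue at arbitrary heights. FYPP1 lies at 0.080 on the left edge, and FYPP3 at 0.63 in the right tail.

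Part of that spread went with library type. Within groups, SAL4 was lower in the plastid-rich library in 8 of 8 groups, by -0.26 ± 0.04 (log2 ± SE, adjusted p = 9.79e-05, limma), and PP2AA2 in 8 of 8 groups, by -0.23 ± 0.05 (adjusted p = 0.000538, limma). SAL1 was lower by -0.12 ± 0.05 (adjusted p = 0.0494, limma), lower in 6 of 8 groups, which did not pass after rescaling over nuclear genes. These 3 of 9 genes stand beside 41.5% of all genes that differed between library types, so the count is not a property of the PP6 genes. FYPP1 (-0.04 ± 0.04, adjusted p = 0.376) and SAL2 (0.02 ± 0.04, adjusted p = 0.728) did not pass (limma). With FPKM rescaled over nuclear genes the differences of SAL4 and PP2AA2 were -0.24 and -0.22.

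**Figure D5:**
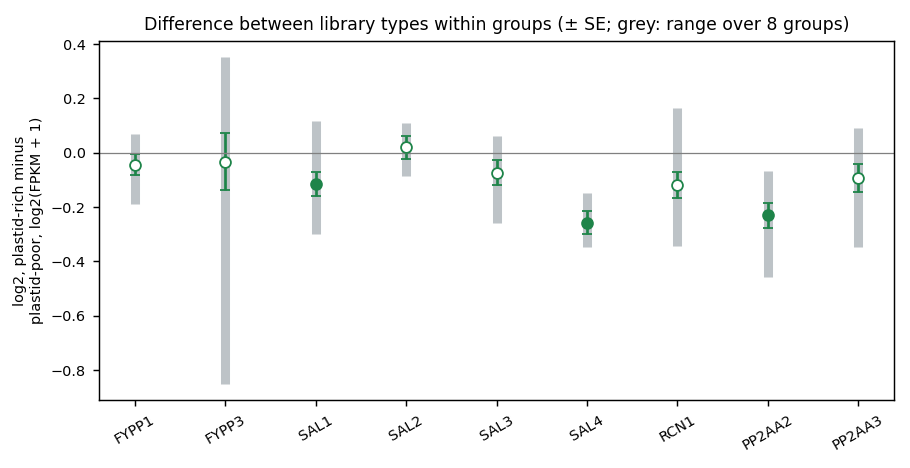
Log2 difference between plastid-rich and plastid-poor libraries within groups (y axis, log2(FPKM + 1), points with SE) for the 9 genes (x axis), with filled points for an adjusted p under 0.05 and grey bars for the range over the 8 groups. SAL4 at -0.26 and PP2AA2 at -0.23 have ranges wholly below 0, and FYPP3 has the widest range, -0.85 to 0.35.

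Over the 24 libraries, Pearson's r of log2(FPKM + 1) for the 36 pairs of members ran from -0.20 to 0.84 with a median of 0.26. It was highest for RCN1 with PP2AA2 (0.84), RCN1 with PP2AA3 (0.81) and SAL1 with SAL3 (0.72), and -0.12 for FYPP1 with FYPP3. FYPP3 stood at 0.63 with PP2AA3, 0.49 with RCN1 and 0.42 with PP2AA2. The libraries share groups, depth and library type, so these values are a description. With the mean of each library type subtracted, RCN1 with PP2AA2 stood at 0.82.

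Of 13284 genes with a mean FPKM of at least 5, the 3 most like FYPP3 over the 24 libraries were ICL (isocitrate lyase, r = 0.80), GSTF7 (a glutathione S-transferase, r = 0.80) and TI1 (r = 0.79). In the 21 libraries left without the FyPP3DN control group, r was 0.68, 0.18 and 0.84. With library type means subtracted the 3 were ABCC3 (r = 0.81), ICL (0.81) and GSTF6 (0.81). The gene most like RCN1 was AT1G14670 (0.91), that most like PP2AA2 was EMB1467 (0.94), and that most like PP2AA3 was MAT3 (0.89). For FYPP1, SAL1, SAL2, SAL3 and SAL4 these were AT4G22120 (0.76), AT4G23460 (0.82), AT2G18220 (0.84), ATK2 (0.75) and AT4G10070 (0.93).

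In the 300 bases around the start of each gene (250 before and 50 after, RefSeq, TAIR10.1), the ABA response element core ACGTG was searched on both strands. It was found in 1 of the 9 genes, SAL2, and in 26.7% of 27443 gene starts. The G-box CACGTG, which contains that core, was in 0 of the 9 and in 7.68% of gene starts. No match says only that these letters are not in this window.

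Among 21 genes of the related phosphatases PP2A and PP4 (catalytic and B-type subunits and regulators), 2 of 294 values over the 14 comparisons passed in limma and 23 had an unadjusted p under 0.05. Both calls were falls with ABA in the labelled combination, where 11.4% of all genes passed, so 2 of 21 is no more than that background. They were the catalytic genes PP2A-4 (-0.29 ± 0.08, adjusted p = 0.0163, limma) and PPX1 (-0.30 ± 0.10, adjusted p = 0.0485). The median over the 21 genes there was -0.05, beside 0.04 over all genes tested.

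Of 11 genes reported as targets or partners of PP6 (5 PIN carriers, PINOID, ABI5, PIF3, PIF4, PHYA and PHYB), ABI5 and PIF4 passed in at least 1 comparison. ABI5, the transcription factor of the ABA response, rose with ABA from 1.47 ± 0.39 to 2.39 ± 0.11 FPKM (SD, n = 3) in WT (log2 0.47 ± 0.12, adjusted p = 0.0176, limma), and also passed in nrp1 nrp2 (0.55 ± 0.12) and the labelled combination (0.51 ± 0.12). In FyPP3DN it was at 2.39 ± 0.28 without ABA and 3.00 ± 0.25 with ABA, a difference that did not pass (adjusted p = 0.293, limma). These libraries did not overlap (2.08 to 2.62 and 2.77 to 3.26), as held for a rise in 9.14% of all genes. For the difference of ABA response between FyPP3DN and WT, 0 of the 11 genes passed (limma), beside 0.144% of all genes. At such low FPKM the added 1 makes the log2 differences smaller. The ABI5 level in FyPP3DN without ABA was above the 1.21 ± 0.19 of the labelled combination (log2 -0.61 ± 0.12 for the latter against the former, adjusted p = 0.00457, limma), whereas against WT the adjusted p was 0.0894.

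PIF4, a growth-promoting transcription factor downstream of phytochrome, rose with ABA in all 4 genotypes, from 32.5 ± 2.39 to 47.9 ± 11.0 FPKM in WT (log2 0.52 ± 0.13, adjusted p = 0.0123, limma) and from 22.4 ± 2.35 to 38.9 ± 3.17 in FyPP3DN (0.77 ± 0.13, adjusted p = 0.000674). It was lower in FyPP3DN than in the labelled combination, at 36.6 ± 1.35 without ABA and 57.0 ± 5.07 with ABA (log2 0.69 ± 0.13 and 0.54 ± 0.13 for the latter against the former, adjusted p = 0.00347 and 0.0320, limma). PIF4 in FyPP3DN against WT without ABA, at -0.52 ± 0.13, did not pass (adjusted p = 0.0732, limma). The difference between backgrounds without ABA was 0.92 ± 0.18 (adjusted p = 0.00833, limma). The transcripts of the PIN carriers, PINOID, PIF3 and the phytochromes PHYA and PHYB did not pass in any of the 14 comparisons. Of the 154 values of the 11 genes, 10 passed in limma and 25 had an unadjusted p under 0.05. All 10 calls were of ABI5 or PIF4, in comparisons where the shares of all genes that passed were 7.7%, 6.02%, 5.95% and 11.4% for ABA in WT, nrp1 nrp2, FyPP3DN and the labelled combination, and 7.58% and 2.01% for the labelled combination against FyPP3DN without and with ABA.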

How the data were processed

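FPKM values were deposited by the authors in 1 file per library, rounded to 2 decimals. The submitters' processing notes name Trimmomatic 0.30, HISAT2 2.0.1 and the TAIR10 build. The counter, the strand setting and which libraries had poly(A) selection or rRNA removal: not given in the sources used here. Symbols and coordinates came from the RefSeq TAIR10.1 table (32548 IDs matched), and the names SAL1 to SAL4 from the rule that chose the genes. Depth was read from steps of 1 fragment in the FPKM of genes shorter than 400 bases (99.8% to 100% of values within 0.1 of a whole fragment). It puts FYPP3 at about 367 to 2790 fragments a library, a counting error of 4.25% at the median.

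The 19500 genes that reached an FPKM of 1 in 3 or more libraries, all 9 members included, were tested as log2(FPKM + 1) with limma 3.58.1 (R 4.3.3). The added 1 understates changes of low genes. A mean per group was fitted over all 24 libraries with an intensity trend, and two-sided p-values were adjusted by Benjamini-Hochberg within each of 22 comparisons. The spread of each gene was 1 estimate shared by all 8 groups. A wide group therefore widens the SE of comparisons without it and has too small an SE in its own comparisons. "Passed" means an adjusted p under 0.05. The fit was tested on simulated data with 1 spread per gene for all groups. That test cannot show what a wide group, such as FyPP3DN without ABA for FYPP3, does to the calls. All 9 members are named in every comparison, and related lists by counts and up to 3 called genes. The members and lists were chosen with earlier results of these data known, and 3 comparisons were added after the values were seen. Residuals of libraries with the same replicate number correlated at 0.153 or more across genes in 11 comparisons between groups, and not in the 3 with FyPP3DN without ABA, where the plastid-rich library has number 2 and not 1 (lowest r -0.694).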

Additional observations from a re-analysis of the deposited data

Results flagged for a closer look

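Differences between groups in the response to the same contrast drew attention for FYPP3 and SAL3. The FYPP3 difference that goes with the FyPP3DN label was lower in the nrp1 nrp2 background than in the WT background without ABA, by -1.90 on the log2(FPKM + 1) scale (adjusted p = 0.00194, limma). FYPP3 was lower in 3 of 3 libraries of the labelled combination than in nrp1 nrp2, as were 12.5% of all genes, and higher in 3 of 3 libraries of FyPP3DN than in WT, as were 6.13%. The FYPP3 response to ABA was higher in the labelled combination than in FyPP3DN by 1.33 (adjusted p = 0.0360, limma), a comparison added after the values were seen. It did not pass in fits of only the groups compared (adjusted p = 0.206) or in plastid-poor libraries (0.0797, limma). Leaving out 1 library gave an adjusted p of up to 0.116 (limma). FYPP3 rose with ABA without overlap in nrp1 nrp2 (as did 7.82% of all genes) and fell without overlap in FyPP3DN (7.02%), and the difference between those responses, -1.12, did not pass (adjusted p = 0.415, limma). That comparison, and the ABA response of SAL3 against WT given next, were also added after the values were seen.

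SAL3 in the labelled combination lay below all WT libraries without ABA (as did 6.59% of all genes) and above all of them with ABA (4.65%), and the difference between the ABA responses, 0.18, did not pass (adjusted p = 1.00, limma). Against nrp1 nrp2 the same crossing was seen (12.5% and 4.86% of all genes), with a difference of 0.24 (adjusted p = 0.957, limma). All comparisons of SAL3 with these groups use the same 6 libraries of the labelled combination.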

How the results depend on the processing

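Of 3600 values for the 9 genes in 22 comparisons under other settings, 3576 kept their direction where called and their side of the threshold, 14 (all FYPP3) no longer passed, 10 newly passed and 0 called values reversed. Fits of only the groups compared ended 3 FYPP3 calls at unchanged log2 differences: 1.68 for FyPP3DN against WT without ABA (adjusted p = 0.296), -0.99 for ABA in FyPP3DN (0.207) and -1.90 for the labelled combination against FyPP3DN without ABA (0.0543, limma), so the number of members called became 0 in each. Those fits hold fewer libraries, and their SEs were 0.311, 0.297 and 0.286, beside 0.201 in the main fit. The main fit shares its spread with groups narrower than FyPP3DN without ABA. The ABA response of FYPP3 in the labelled combination against FyPP3DN was also lost, leaving 0 members called, with no filter on low values (adjusted p = 0.0507), in fits of the groups compared (0.206), in plastid-poor libraries (0.0797) and in 8 of 12 fits that left out 1 library. With library type in the fit, 3 members were called lower in the labelled combination against FyPP3DN without ABA (FYPP3, PP2AA2, PP2AA3) and 2 in the difference between backgrounds (FYPP3, PP2AA2, adjusted p = 0.0494). Calls rose over all genes too, to 3016 and 2126 genes with that term from 1479 and 760 without it.

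Leaving out 1 library at a time, FYPP3 ranged from 1.33 to 1.97 for FyPP3DN against WT without ABA, from -1.28 to -0.64 for ABA in FyPP3DN and from -2.19 to -1.55 for the labelled combination against FyPP3DN, and each stayed past the threshold. Without replicate 2 of FyPP3DN without ABA, its plastid-rich library, 2 members were called for ABA in FyPP3DN (PP2AA3 at -0.39, adjusted p = 0.0304), 3 in the labelled combination against FyPP3DN and in the difference between backgrounds (FYPP3, RCN1, PP2AA3), and 1 in the ABA response of FyPP3DN against WT (FYPP3 at -1.36, adjusted p = 0.0124) and against nrp1 nrp2 (FYPP3 at -1.41, adjusted p = 0.0270, limma). Calls rose over all genes too in these comparisons, in the same order. They were 1571, 1717, 1347, 110 and 10 genes without that library, and 1161, 1479, 760, 28 and 2 with it. The other counts of members called ranged from 0 to 1 for the ABA response of the labelled combination against FyPP3DN. SAL1 was no longer called between library types with median-of-ratios scaling, no filter, no intensity trend, quantile normalization or rescaling over nuclear genes. With a replicate block the pairing moved no call: FYPP3 in FyPP3DN against WT without ABA had an adjusted p of 0.000321. The SD of FYPP3 moved from 0.63 to 0.16 without the FyPP3DN libraries. Counting error alone is about 4% for FYPP3 at the median number of fragments, and the part of depth in the calls was not tested.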

Other observations

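Some common reference genes moved between these groups. Of 154 values (11 genes in 14 comparisons between groups), 3 were called higher, 4 lower and 27 had an unadjusted p under 0.05 (limma). Most calls fell where 11.4% (ABA in the labelled combination) and 7.58% (the labelled combination against FyPP3DN without ABA) of all genes passed, and 6 of the 11 genes had no call. With ABA in the labelled combination UBC9 and UBC21 rose and ACT2 fell, and with ABA in FyPP3DN UBC9 rose. EF1A and GAPC1 were lower in the labelled combination than in FyPP3DN without ABA, and EF1A also with ABA. The SD of log2(FPKM + 1) over the 24 libraries was 0.23 for ACT2, 0.24 for EF1A and 0.26 for GAPC1, beside 0.080 for FYPP1 and 0.10 for TIP41-like, below which 2.13% of the genes tested lay.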
